A study of Homo sapiens with 8 samples.

Results

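Regions where ATF4 peaks were listed with L-asparaginase and not without it, in 2 leukaemia cell lines at once, numbered 1678. They come from 8 deposited lists of ATF4 peaks. Joining peaks of all 8 lists wherever they overlapped by 1 bp or more gave 132657 regions. The shared gained regions were selected on the presence of listed peaks: a region counted when all 4 asparaginase lists held a peak in it and none of the 4 untreated lists did, which was the case for 1.26% of all regions and for 12.4% of the 13492 regions that all 4 asparaginase lists hold. Since they were chosen by presence and absence in these lists, their being listed with the drug only is a description and carries no test.

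ATF4 is a transcription factor of the basic leucine zipper family and the main effector of the integrated stress response. When an amino acid runs short, uncharged tRNA activates the kinase GCN2, general translation slows and the ATF4 messenger is translated more. ATF4 then binds DNA as a heterodimer, often with a C/EBP protein, at elements near genes for amino acid synthesis, uptake and tRNA charging. L-asparaginase, a drug used in acute lymphoblastic leukaemia, breaks down asparagine in the medium, and a cell must then make its own asparagine through asparagine synthetase.

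The cells were Nalm6 and SUPB15, established lines of acute lymphoblastic leukaemia, either untreated or given 1 IU/ml L-asparaginase for 2 h. Chromatin was immunoprecipitated with 5 µg of a rabbit monoclonal antibody to ATF4 in all groups, untreated ones included. Each of the 4 groups held 2 libraries, replicates 1 and 2. The Nalm6 libraries are described as independent experiments, and no such statement covers SUPB15, so the spread between its libraries may be technical. Positions are in the hg19 build. No annotation or sequence of that build was used here, so regions are given by position, without gene names or bases, and the identity of the lines was not checked against marker genes.

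The untreated lists held 34825 and 36801 peaks in Nalm6 and 9575 and 9586 in SUPB15, and the asparaginase lists 43376 and 48984 in Nalm6 against 88302 and 41213 in SUPB15. The genome background, the lowest background recovered from a list, stands for relative depth. In Nalm6 it was 2.97 and 2.79 in the untreated libraries and 2.21 and 2.33 in those with asparaginase. In the SUPB15 libraries it lay between 3.90 and 4.19. At the 3812 regions with a peak in all 8 lists, summits divided by the genome background were compared. With asparaginase they were 1.35 times as high as without it in Nalm6 and 1.48 times in SUPB15 (medians over regions, each the ratio of both replicates' geometric means). They were higher with the drug at 78.0% of these regions in Nalm6 and at 91.6% in SUPB15. In Nalm6 the lower genome background with the drug enters these values. Before division, the median number of fragments at the summit was 61 and 65 untreated and 67 and 76 with the drug in Nalm6. In SUPB15 it was 34 and 30 untreated and 69 and 49.5 with the drug.

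The 20 strongest shared gained regions had summits close together in the 4 asparaginase libraries, spread over a median of 49 bp (6 to 117 bp). They were ranked by the lowest of their 4 fold enrichments, the peak caller's ratio of fragments at the summit to the local background. The first, at chr3:34152249-34153025, had 67 and 77 fragments piled up at its summit in Nalm6 and 76 and 65 in SUPB15. Divided by the genome background of each library, which is called height from here on, these were 30.3 and 33.0 in Nalm6 against 18.1 and 16.6 in SUPB15. All 4 values were well above the height of 3.33 to 3.94 from which the untreated lists held peaks at genome background. The 4 summits lay within 17 bp of each other, and the nearest untreated peak of either line was 82.2 kb away.

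The region at chr4:59600391-59600882 stood further from any untreated peak, at 190 kb. Its heights were 20.4 and 18.9 in Nalm6 against 12.9 and 10.7 in SUPB15, and its summits spread over 26 bp. Here the local background of SUPB15 was no higher than the genome background, so the peak stood on an unraised background. At chr17:35725520-35726071 the heights were 32.2 and 34.3 in Nalm6 against 22.7 and 18.1 in SUPB15, with an untreated peak 4.53 kb away. A strong peak in both lines at these places follows from the rule and the ranking.

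Other strong regions were uneven between the lines. At chr7:76108740-76109549 the height was 34.4 and 34.7 in Nalm6 against 11.9 and 10.2 in SUPB15, and this peak ranked 22 and 21 by fold enrichment in the whole Nalm6 lists but 1859 and 2050 in those of SUPB15. The region at chr1:224811318-224812118 had the opposite form, with heights of 13.6 and 12 in Nalm6 against 38.2 and 28.3 in SUPB15. It lay on a local background of 3.96 and 3.02 times the genome background in SUPB15, and of 1.09 and 1.00 times in Nalm6. At chr3:59545372-59545979 the heights were 14 and 11.6 in Nalm6 against 27.7 and 19.4 in SUPB15. All 20 regions of this ranking met the rule at −log10 q of at least 10 in every list, which their choice by high enrichment largely decided. With every list cut to 9575 peaks, 9 of the 20 met it. The last 2 regions named were among the 11 that did not. That cut did not go by fold enrichment, by which these 2 regions ranked from 1004 to 6574 in the 4 asparaginase lists.

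The 11th to 20th regions in this ranking had lowest fold enrichments of 7.21 to 7.63. At chr10:89260341-89260849 the 4 values were 9.88 and 11.5 in Nalm6 against 8.52 and 7.63 in SUPB15. At chr16:68626478-68627168 they were 11 and 9.76 in Nalm6 against 8.18 and 7.62 in SUPB15. SUPB15 replicate 2 was the lowest of the 4 libraries at both places. The region at chr19:40590757-40591324 had 8.68 and 8.98 in Nalm6 against 10.5 and 7.61 in SUPB15, so that the values of the lines overlapped. At chr18:72694875-72695863 the 4 summits fell within 6 bp, the tightest of the 20, with enrichments of 8.15 and 9.18 in Nalm6 against 7.47 and 8.0 in SUPB15. At chr7:123903303-123903959 the nearest untreated peak was 417 kb away, the farthest of the 20, and the enrichments were 7.53 and 9.01 in Nalm6 against 8.48 and 8.32 in SUPB15. In 19 of the 20 regions the summits lay within 100 bp, 14 were more than 10 kb from any untreated peak, and none was within 1 kb of one. The median height of the 20 was 14.9 and 17.2 in Nalm6 and 16.2 and 11.8 in SUPB15. Over all 13492 regions with a peak in all 4 asparaginase lists it was 19.0 and 20.6 in Nalm6 and 9.78 and 7.64 in SUPB15.

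Most shared gained regions were of moderate height. Their median height was 9.51 and 10.3 in the Nalm6 asparaginase libraries and 9.31 and 7.13 in those of SUPB15. The regions with a peak in all 8 lists reached 30.3 and 32.6 in Nalm6 against 16.5 and 12.6 in SUPB15. Regions with a peak in all 4 asparaginase lists and in 1 to 3 untreated lists had medians of 18.1 and 19.7 in Nalm6 against 8.59 and 6.87 in SUPB15. Shared gained regions were therefore lower than that class in Nalm6 and slightly higher than it in SUPB15. Absence from the untreated Nalm6 lists, which are much longer than those of SUPB15, removes regions that are tall in Nalm6, so this ordering is partly made by the rule.

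**Figure D1:**
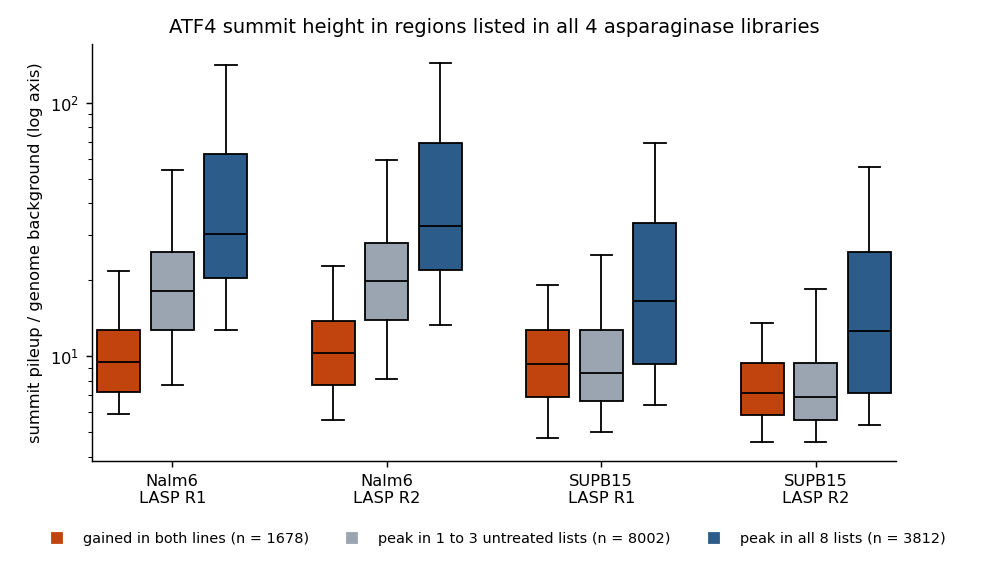
Height of the ATF4 summit (fragments at the summit divided by the genome background, log axis) in the 4 asparaginase libraries for 3 classes of regions that all 4 list; boxes give the quartiles and median over regions and whiskers the 5th to 95th percentile. Shared gained regions have medians of 9.51 and 10.3 in Nalm6, below both other classes, and of 9.31 and 7.13 in SUPB15, close to the regions with 1 to 3 untreated peaks.

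Compared with sites gained in a single line, the shared ones were the stronger part. In the Nalm6 asparaginase lists their median fold enrichment was 5.30 and 5.52, against 4.52 and 4.65 at the 3595 regions gained in Nalm6 without any SUPB15 peak. In the SUPB15 lists it was 5.07 and 4.46, against 3.85 and 3.65 at the 9609 regions gained in SUPB15 without any Nalm6 peak. By rank within a list, 45.4% of the shared gained regions were in the strongest 10% of SUPB15 replicate 1 and 13.6% in that of replicate 2, compared with 4.89% and 7.03% in Nalm6 replicates 1 and 2. Of all 13492 regions with a peak in all 4 asparaginase lists, the shares were 42.7% and 24.5% in SUPB15 and 24.4% and 26.7% in Nalm6. The shared gained regions thus lay below that share in SUPB15 replicate 2 and in both Nalm6 replicates. SUPB15 replicate 1 has the longest list, so that its strongest 10% reaches further down. These are descriptions of lists the rule has used.

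Within a line the replicates ranked these regions alike. Across the 1678 regions the log2 heights of Nalm6 replicates 1 and 2 had a Pearson r of 0.84 and those of SUPB15 an r of 0.80, while r between libraries of different lines was 0.31 to 0.36. The spread of the differences between regions was 0.33 (SD of log2) between the Nalm6 replicates and 0.36 between the SUPB15 replicates, and 0.59 to 0.71 between lines. At regions with a peak in all 8 lists r between lines was 0.75, over a wider range of heights. Regions are not independent replicates, and they share their libraries and depth. SUPB15 replicate 1 was higher than replicate 2 by a median of 0.32 on the log2 scale, and the same difference in Nalm6 was -0.10.

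How far the asparaginase peaks stood above what the untreated libraries would have listed differed from region to region. For each region the pileup was computed at which an untreated library of the same line would have reached the lowest p-value in its list, on the local background seen with asparaginase. The lower of both asparaginase heights was divided by the higher of both limits. The median of this ratio was 1.89 in Nalm6, from 1.04 to 8.0, and 1.53 in SUPB15, from 0.81 to 3.59. In SUPB15 1638 regions (97.6%) were at or above 1, and all 1678 were in Nalm6. A peak must also be wide enough to be listed, so the limit is approximate and a listed height is no measure of the untreated level.

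A ratio of at least 2 in both lines was found at 168 regions, 10.0% of the shared gained ones. These 168 had a median lowest enrichment of 5.96 and a median summit spread of 60 bp. Ranked by the lower of both lines' ratios, the first were chr17:35725520-35726071, with 5.61 in Nalm6 and 3.51 in SUPB15, and chr3:34152249-34153025, with 4.23 and 3.38. The third, at chr4:82553537-82554227, had 3.17 and 3.41, with fold enrichments of 7.90 and 7.01 in Nalm6 against 9.41 and 9.01 in SUPB15. It was named after its values had been seen. Set beside the rise at regions listed in all 8 libraries, the ratio was above 1.35 in Nalm6 at 1545 regions (92.1%) and above 1.48 in SUPB15 at 898 regions (53.5%). It exceeded both at 845 regions, 50.4%, and neither at 80. The part of that rise in the gain of single regions was not tested.

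**Figure D2:**
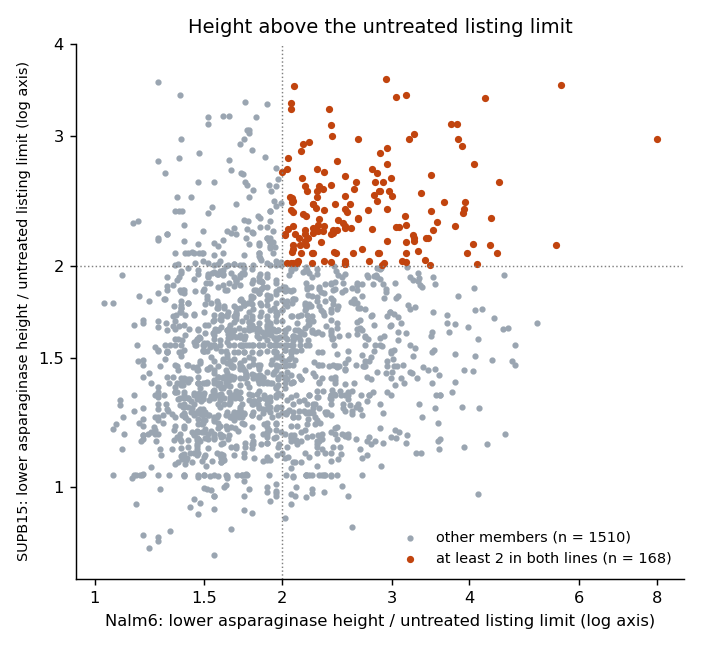
For each of the 1678 shared gained regions, the lower asparaginase height of a line divided by the height at which the untreated lists of that line would have listed a peak, Nalm6 on the horizontal and SUPB15 on the vertical axis (both log axes); dotted lines mark a ratio of 2. The 168 regions in the upper right reach 2 in both lines, and the farthest to the right has a ratio of 8.0 in Nalm6 and lies on chromosome 7.

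The summits of the 4 libraries lay close together, within bounds set by the rule, which joined overlapping peaks into 1 region. The spread to be had from region width alone was not computed. The widest distance between the 4 summits of a region had a median of 85 bp (quartiles 53 and 136 bp), and 999 regions (59.5%) had all summits within 100 bp. The distance between replicates was 34 bp in Nalm6 and 31 bp in SUPB15, and the distance between the mean summits of the lines was 37.5 bp (medians). In 16 regions the summits were more than 500 bp apart. Regions with a peak in all 8 lists had the same median of 85 bp, and regions with 1 to 3 untreated peaks had 151 bp. A peak of each list was single in 1632 of the 1678 regions. The median region was 499.5 bp wide against 1119 bp for regions with a peak in all 8 lists. Merging more lists can widen a region, and its part in this difference was not tested.

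At like strength the summits of the shared gained regions were closer together than those of regions listed in all 8 libraries, except among the strongest. With a lowest enrichment below 3.5, their median spread was 108.5 bp over 454 regions, against 278 bp over 586 regions with a peak in all 8 lists. With a lowest enrichment of 5 or more, it was 67 bp over 291 regions against 47 bp over 2125. In the bands between, the shared gained regions had the smaller spread. Wide regions leave more room for summits to differ, and the widths of these classes differed in every band.

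**Figure D3:**
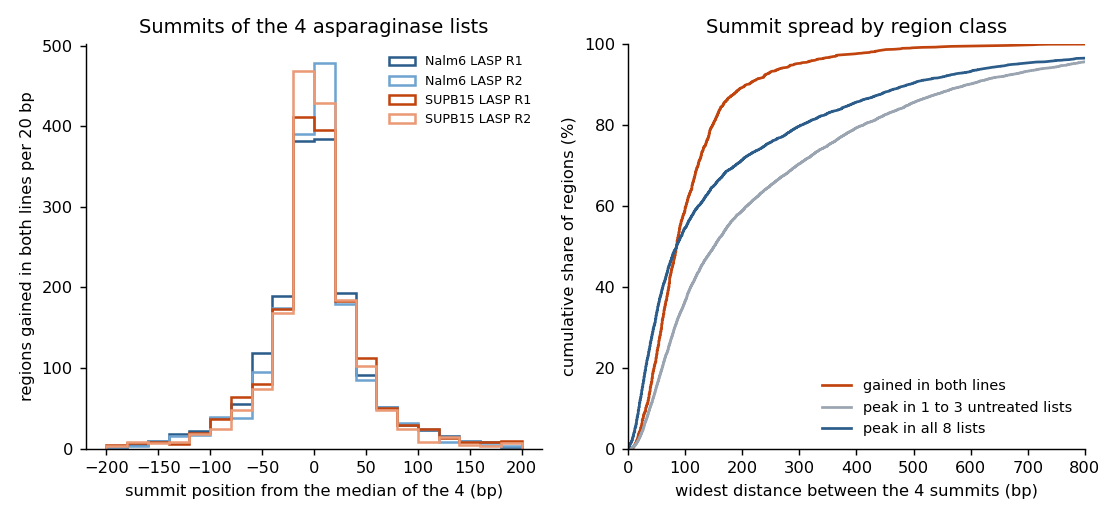
Left, the summit positions of the 4 asparaginase lists relative to their median in the 1678 shared gained regions (bp, counts per 20 bp). Right, the cumulative share of regions (%) by the widest distance between the 4 summits (bp), where 59.5% of the shared gained regions lie within 100 bp against 54.6% of those that all 8 lists hold and 36.6% of those with 1 to 3 untreated peaks.

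By the rule no shared gained region overlapped an untreated peak, and the distance to the nearest one varied widely. The nearest untreated peak of either line was a median of 13.1 kb from the region's edge (quartiles 4.32 and 35.2 kb). It was within 1 kb at 138 regions, 8.22% (95% Wilson interval 7.0 to 9.64, counting error only), beyond 10 kb at 958 regions, 57.1%, and beyond 100 kb at 124. Within 5 kb it was found at 27.9%. The share within 1 kb was 11.2% at regions gained in Nalm6 only and 6.70% at regions gained in SUPB15 only, and the median distances were 12.3 and 17.6 kb. These classes also exclude untreated peaks by their rule. Distances were not computed for other positions of the genome. The untreated Nalm6 peaks were the nearer ones, at a median of 14.2 kb against 52.8 kb for the fewer untreated SUPB15 peaks.

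**Figure D4:**
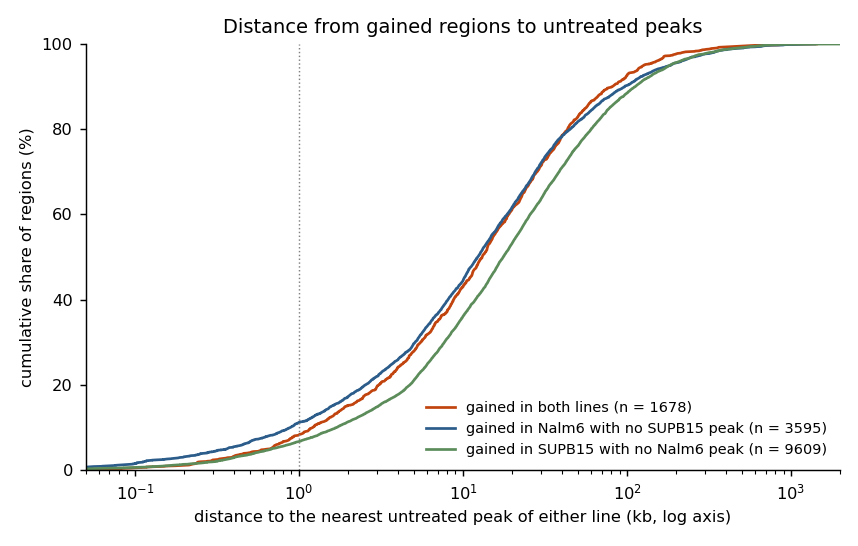
Cumulative share of regions (%) by the distance to the nearest peak of any untreated list (kb, log axis) for 3 classes of gained regions without any untreated peak; the dotted line marks 1 kb. Shared gained regions have 8.22% within 1 kb, between the 11.2% of regions gained in Nalm6 only and the 6.70% of those gained in SUPB15 only.

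The surroundings of these regions fell along a range from quiet to enriched. The local background, the value the peak caller set the summit against, had a median of 1.23 and 1.28 times the genome background in the Nalm6 libraries and of 1.55 and 1.4 times in those of SUPB15. At regions with a peak in all 8 lists it was 3.19 and 3.43 times in Nalm6 and 2.23 and 1.85 times in SUPB15. In 1109 shared gained regions, 66.1%, the mean Nalm6 value was below 1.5, and the nearest untreated peak was a median of 22.2 kb away. In 178 regions, 10.6%, it was at least 3, with an untreated peak a median of 1.49 kb away and within 1 kb at 66 of them. Regions of the second kind had taller summits in Nalm6, with a median height of 18.9 against 8.57, but a lower median fold enrichment of 3.95 against 5.71, since the ratio is taken over a higher background.

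Of the 5 weakest shared gained regions, 4 lay at the enriched end of that range. At chr1:65187225-65187794 the fold enrichment was 2.40 and 2.19 in Nalm6 against 4.22 and 4.79 in SUPB15, although the heights in Nalm6 were 28.1 and 27.0. The local background there was 11.5 and 12.1 times the genome background in Nalm6 and 1.91 and 1.60 times in SUPB15. At chr10:135499401-135500202 the enrichments were 2.31 and 2.62 in Nalm6 against 3.01 and 3.18 in SUPB15, and an untreated peak lay 327 bp away. The other 3 were on chromosome 8, with lowest enrichments of 2.24, 2.25 and 2.33. The last of these lay at the quiet end in Nalm6, with a local background of 1.11 and 1.04 times the genome background, against 2.62 and 2.28 times in SUPB15. Its pileups of 17 and 21 fragments in Nalm6 and 27 and 26 in SUPB15 were below the medians of the shared gained regions, and the nearest untreated peak was 16.3 kb away.

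The regions just outside the rule on the asparaginase side were weaker. Of those without any untreated peak, 2140 were missing from exactly 1 asparaginase list, most often from SUPB15 replicate 2 (897) or Nalm6 replicate 1 (826). The median of the lowest enrichment in the other 3 lists was 3.46 and 3.74 in these cases, against 4.35 and 4.07 for the shared gained regions in the same 3 lists. A further 945 regions had a peak in all 4 asparaginase lists and in exactly 1 untreated list, most often Nalm6 replicate 2 (384) or SUPB15 replicate 1 (298). The untreated peak there had a median fold enrichment of 3.94 and 3.87. Where that list was Nalm6 replicate 1 or 2, the lowest asparaginase enrichment had a median of 3.66 and 3.88, against 4.0 for the shared gained regions. Where it was SUPB15 replicate 1 or 2, the median was higher, at 4.85 and 4.52. Without SUPB15 asparaginase replicate 2 the rule gave 2572 regions in place of 1678.

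Shared gained regions were spread over the genome. Chromosome 2 held the most, 172, followed by chromosome 1 with 159, chromosome 12 with 104 and chromosome 3 with 101. As a share of everything listed in all 4 asparaginase libraries, they made up 10.3% on chromosome 7 to 15.8% on chromosome 21 over the 22 autosomes, beside 12.4% over all regions. The median gap from one to the next was 808 kb, and 11 neighbouring pairs were within 10 kb. The closest pair was on chromosome 3, from 176967964 to 176968397 and from 176969594 to 176969975, with 1196 bp and no other listed region between them. Its first region had fold enrichments of 4.88 and 5.75 in Nalm6 against 4.37 and 4.79 in SUPB15, and its second had 4.33 and 4.55 in Nalm6 against 4.75 and 4.17 in SUPB15. Both pairs on chromosome 2 that begin at 47421875 and 47925353 likewise had no listed region between their members.

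Heights with asparaginase were compared between the lines, a contrast that the rule did not set directly. The log2 heights of the 4 asparaginase libraries were fitted with limma over all 13492 regions with a peak in all 4 lists, after the median line difference of 1.15 on the log2 scale was removed. The spread of each region was taken wholly from the trend over all regions, since limma estimated infinite prior degrees of freedom. Of the 1678 shared gained regions, 1100 (65.6%) were higher in SUPB15 and 13 (0.77%) higher in Nalm6 at an adjusted p under 0.05, beside 22.4% and 15.2% of all regions fitted. Without removing the median, 110 of the 1678 were higher in SUPB15 and 592 in Nalm6, beside 450 (3.34%) and 10246 (75.9%) of all 13492 regions. Which line had more calls among the 1678 is thus set by the centring. With and without centring, the share higher in SUPB15 was larger, and that higher in Nalm6 smaller, than over all regions. Fold enrichment over local background was also fitted in place of height, with its median line difference of 0.54 removed. By it 608 were higher in SUPB15 and 70 in Nalm6, beside 21.1% and 18% of all regions. The median height difference of the 1678, Nalm6 minus SUPB15, was -0.85 after centring and 0.30 before it. The absence of these regions from the long untreated Nalm6 lists selects low heights in Nalm6, and the split is not read as a property of the regions. Without Nalm6 replicate 1 or 2, 677 and 622 were higher in SUPB15 and 4 and 3 higher in Nalm6, and without SUPB15 replicate 1 or 2, 21 and 29 were higher in Nalm6.

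**Figure D5:**
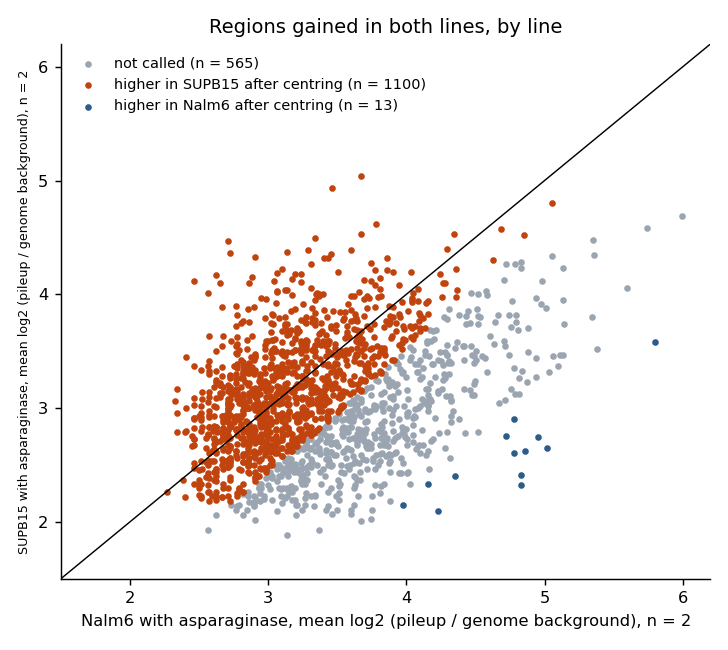
Mean log2 height of the 1678 shared gained regions in Nalm6 (horizontal) and SUPB15 (vertical) with asparaginase, n = 2 libraries each, with the diagonal of equal height. Colours give the limma calls after the median line difference of 1.15 was removed, 1100 higher in SUPB15 and 13 higher in Nalm6; without removing it the split is 110 and 592.

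Single regions differed between the lines by far more than the replicates did. The largest excess in SUPB15 was at chr11:19834131-19834818, where the height was 26.0 and 18.8 in SUPB15 and 5.9 and 7.3 in Nalm6, a centred log2 difference of -2.83 (SE 0.27, limma adjusted p = 1.85e-22). At chr12:128259226-128259676 the heights were 19.8 and 15.3 in SUPB15 and 5.4 and 5.6 in Nalm6 (log2 difference -2.72, SE 0.26, limma adjusted p = 1.05e-23). Regions at chr19:11377923-11378463 and at chr22:46917798-46918293 followed, at -2.72 and -2.62. At these 4 regions the heights of the lines did not overlap, and those on chromosomes 11 and 12 left the set at −log10 q of at least 5 in every list. The fifth lay on chromosome 8, at -2.58, with a local background of 6.01 and 5.10 times the genome background in SUPB15 and of 1.01 and 1.12 times in Nalm6, and its fold enrichment over local background did not pass the test.

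The largest excess in Nalm6 was at chr12:71839790-71840262, with heights of 25.4 and 31.7 in Nalm6 against 5.5 and 4.6 in SUPB15 (log2 difference 1.30, SE 0.27, limma adjusted p = 1.54e-05). Its local background was 8.33 and 9.08 times the genome background in Nalm6 and 1.12 and 1.00 times in SUPB15. Over local background the difference turned to -0.90 after the median line difference of 0.54 was removed. The fold enrichments there were 2.94 and 3.38 in Nalm6 against 4.21 and 3.86 in SUPB15. The region at chr18:2086234-2087673 had heights of 28.1 and 28.7 in Nalm6 against 6.9 and 4.1 in SUPB15 (log2 difference 1.22, SE 0.27, limma adjusted p = 6.81e-05) on a local background of at most 2.77 times the genome background. Its Nalm6 and SUPB15 summits lay 487 bp apart on average, so these heights are not of one site, and its −log10 q in SUPB15 replicate 2 was 2.34. Both this region and the one at chr12:71839790-71840262 left the set at −log10 q of at least 5 in every list. None of the 5 regions highest in Nalm6 stayed in the set at −log10 q of at least 10 or with equally long lists within a line. The other 3, at chr12:92836576-92836993, chrX:149644328-149644927 and chr5:79480968-79481385, had differences of 1.18, 1.05 and 1.04, and none of the 3 was called without Nalm6 replicate 1 or without Nalm6 replicate 2. On chromosomes 12 and 5 the difference over local background was -0.40 and -0.26 after the median of 0.54 was removed. The fold enrichments themselves stayed higher in Nalm6. They were 3.97 and 4.08 against 3.54 and 3.75 in SUPB15 on chromosome 12, and 4.10 and 4.33 against 3.72 and 3.23 on chromosome 5. The negative sign at both places is thus set by the centring.

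Parts of chromosomes 1 and 8 had a raised background in SUPB15, and the line difference was larger there. The 43 shared gained regions on chromosome 8 from 60 Mb had a median local background of 2.26 times the genome background in SUPB15 and 1.24 times in Nalm6. The 40 on chromosome 1 from 180 Mb had 2.14 and 1.34 times. Elsewhere, over 1595 regions, the values were 1.45 and 1.25 times. The median centred difference was -1.32 and -1.11 on these parts against -0.83 elsewhere, and 86.0% and 77.5% of the regions were called higher in SUPB15 against 64.7%. Among all fitted regions, the median centred differences were -0.55 and -0.24 on these parts against 0.03 elsewhere, and 43.7% and 29.5% were called higher in SUPB15 against 21.5%, so the shift on these parts was not limited to the shared gained regions. The part of the raised background in these differences was not tested.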

How the data were processed

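ATF4 ChIP-seq peaks were available as 1 list per library. The submitters' processing notes name BWA, hg19, MACS2 and DiffBind; no version or option is given in the sources used here. The deposited lists give for each peak a fold enrichment (a ratio) and −log10 p and −log10 q values made by the authors' peak caller, and the summit position.

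The fold, taken as (pileup + 1) / (background + 1), and the Poisson p were solved for the whole-number pileup and the background, which succeeded for 100% of peaks (tolerance 0.001 in −log10 p). The lowest background of a list was taken as genome background. Backgrounds above it were multiples of 0.02 (tolerance 0.0005), so they appear to come from the library itself; this is inferred. Read totals are unknown, and intervals cover counting error only. For a region with several peaks of a list the tallest was used.

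Log2((pileup + 1) / genome background) was compared with limma 3.58.1 (trend, Benjamini-Hochberg, 0.05; R 4.3.3). Regions, inversion and fit were tested on simulated data. Named were the 20 strongest and 5 weakest regions by lowest enrichment and the 5 most extreme called regions per line. Regions, lists and rules were chosen with earlier results of these data known. Planned shares with ATF4 elements or near transcription starts, and gene lists, were not computed, since no hg19 sequence or annotation was used here. The ratio of a height to the untreated listing limit was added after seeing the data. The limma p-values of the main fit rest on a spread pooled over all 13492 fitted regions, from 2 libraries per line. They cover no spread beyond these samples.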

Additional observations from a re-analysis of the deposited data

How the results depend on the processing

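The number of shared gained regions was within 1.5 times 1678 for −log10 q of at least 5, peaks within 200 bp merged, summits within 200 bp, no untreated peak within 1 kb, chromosomes 1 and 8 left out and, added after seeing the data, equally long asparaginase lists; at −log10 q of at least 5 it was 1452, of which 1039 were among the 1678. It was 978 with −log10 q of at least 10 in every list, of which 266 of the 1678 remained, and 266 with that threshold for asparaginase only, 558 with equally long lists within a line (548 of the 1678) and 383 with 8 equally long lists (58 of the 1678), and 168 with a ratio of 2 to the untreated limit in both lines (added after seeing the data). Fewer peaks can count under the shortened lists and thresholds, and cutting untreated lists admits other regions. Of 36 named regions, 29 stayed at −log10 q of at least 5, 22 at 10, 23 with equally long lists within a line and 9 with 8 equally long lists. Without single libraries it was 1757 to 2572. Members higher in Nalm6 and in SUPB15 numbered 70 and 608 with fold enrichment over local background and 592 and 110 without centring, and 3 to 29 and 622 to 1067 without single libraries; the cause was not tested. Fold enrichment, with a median line difference of 0.54 removed, turned the difference at 3 named regions, to -0.90, -0.40 and -0.26. At those of -0.40 and -0.26 the fold enrichments before centring were still higher in Nalm6. With a replicate block 8 were higher in Nalm6 and 956 in SUPB15. Deviations of same-numbered asparaginase libraries correlated at -0.03 between the lines, so no pairing across lines was seen. Pairing of untreated with asparaginase libraries within a line was not tested. Among regions with −log10 q of at least 10 in all asparaginase lists 9.77% were within 1 kb of an untreated peak and the median summit spread was 58 bp, and 27.9% of all were within 5 kb of one. Shares with ATF4 elements and near transcription starts were not run. The lists give no read totals, so absence means only that a site was below the listing limit.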
